A study of Zea mays with 38 samples.

Results

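ANGUSTIFOLIA3 (AN3, also named GIF1) and the GRF-INTERACTING FACTORs GIF2 and GIF3 were followed in B73 maize, an inbred line of Zea mays, whose seedling leaves received UV-B radiation. They were selected as every microarray feature whose symbol or synonym in the platform's gene table, read with the RefSeq gene table, was AN3 or GIF with a number. This gave 4 features of 3 genes among 20014 tested features: AI770702 and BQ169281 for AN3, AI901846 for GIF2 and AI666227 for GIF3, and 4 of 4 passed the filter on missing values. RefSeq also lists the name AN3 as a synonym of GRF1, which has no probe in the platform's gene table. The group was chosen by the measured log2(UV/control) of GIF3 at 4 h, which had been seen first, so all 4 h ratios between UV and control leaves are given as a description, without a test.

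UV-B-treated leaves were compared with control leaves of the same time at 1, 2, 4, 8 and 12 h, which made 10 groups of the same line and organ without any transgene or mutant. Total RNA of 1 UV sample and 1 control sample shared each 2-colour cDNA slide. There were 4 slides (a to d) at each time except 2 h, where 3 (a, c and d) were used and slide b was not analysed here. UV RNA carried Cy5 on slides a and b and Cy3 on slides c and d. At 1, 2 and 4 h the log ratios of slides with opposite dye orientation correlated negatively over all features (median r of -0.24, -0.29 and -0.27). This limits what single ratios at those times show. Seedling age and UV-B dose are not stated in the labels, nor is it said whether each slide had an RNA extract of its own, so p-values measure the spread between slides, which may be technical.

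AN3 and the other GIF proteins are small transcriptional coactivators with an SNH domain. They do not bind DNA themselves but pair with GROWTH-REGULATING FACTORs (GRFs), and the pair recruits SWI/SNF chromatin remodelling complexes to target genes. In Arabidopsis, loss of AN3 gives narrow leaves with fewer cells, and in maize AN3 is known for its part in the dividing zone at the leaf base.

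Of the 4 features, the AN3 feature AI770702 was bright and the other 3 lay within or below the range of unspecific signal. Unspecific signal was read from 7 spots of transgene or foreign sequences (HPH, BT, BAR, NPTII, GUS, GFP and LUC), whose mean log2 intensities ran from 15.41 (LUC) to 16.76 (HPH). AN3 AI770702 averaged 20.89, and 0 of the 7 foreign spots were at or above it. GIF2 AI901846 averaged 16.30, with 3 of 7 foreign spots at or above it, and AN3 BQ169281 averaged 15.63, with 5 of 7. GIF3 AI666227 averaged 15.27, and 7 of 7 foreign spots were at or above it. In all, 14512 tested features (72.5%) were brighter than the brightest foreign spot, and the remaining 5502 are called dim below. A dim spot cannot be told apart from unspecific signal, and in whole leaves fewer cells of a type and less RNA per cell cannot be told apart.

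**Figure D1:**
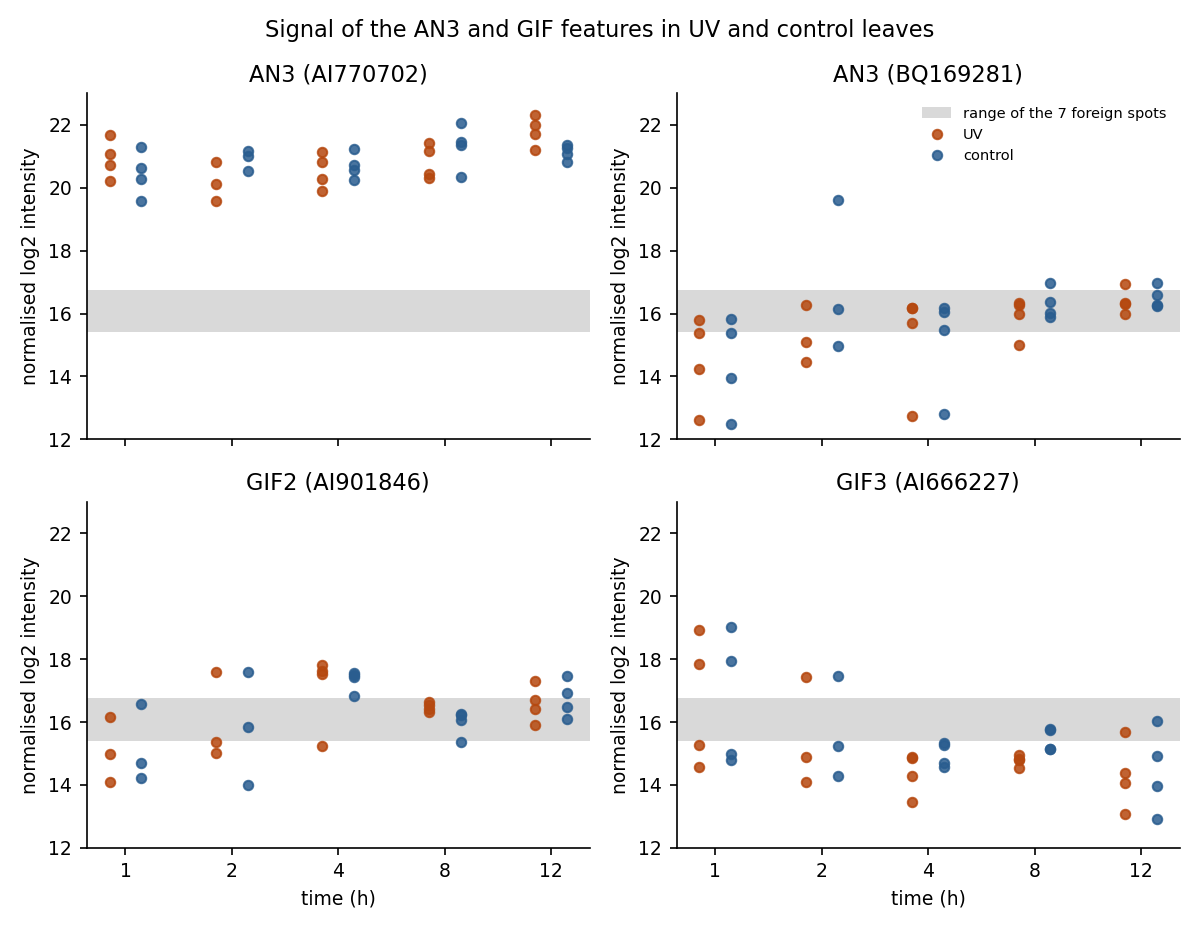
Normalised log2 intensity of each feature in UV leaves (left of each pair) and control leaves against time in hours, 1 point per slide. The grey band spans the mean intensities of the 7 foreign spots, 15.41 to 16.76. AN3 AI770702 lies above the band on every slide, and most points of the other 3 features lie in or under it.

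The bright AN3 feature did not change detectably at any tested time. Its log2(UV/control) was 0.45, 1.15, -0.06 and 0.35 on slides a to d at 1 h. It was -0.42, -1.59 and -0.19 on slides a, c and d at 2 h, lower in UV on 3 of 3, as were 17.7% of features. At 4 h it was 0.56, -1.33, -0.48 and 0.57, and signs differed between slides. At 8 h it was -0.04, -0.92, -0.28 and -0.66, lower in UV on 4 of 4 slides. At 12 h it was 0.96, 0.43, 0.91 and 0.39, higher in UV on 4 of 4 slides. One-sided slides of this kind were common: 13.6% of features measured on all slides were lower in UV on all 4 at 8 h, and 14.9% were higher on all 4 at 12 h. UV and control levels normalised within slides overlapped at every time. After the normalization between slides used below, they did not overlap at 2 h (UV up to 20.71, control from 20.89). Nor did they at 12 h (UV from 20.92, control up to 20.78). The share of all features with such a gap was not computed. The fitted change (± SE) was 0.47 ± 0.29 at 1 h (limma, Benjamini-Hochberg over all features, adjusted p = 0.737), -0.71 ± 0.34 at 2 h (adjusted p = 0.250), -0.47 ± 0.29 at 8 h (adjusted p = 0.357) and 0.67 ± 0.29 at 12 h (adjusted p = 0.219). The mean of these times was -0.01 ± 0.15 (adjusted p = 0.973), and the limma F-test between them gave an adjusted p of 0.194. The slides of AN3 AI770702 scattered widely, with a residual SD of 0.625 on the log2 scale against a median of 0.332 over all features.

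The dim AN3 feature BQ169281 gave no call either, and single slides carried its largest values. At 1 h its log2(UV/control) was 0.41, 0.29, 0.13 and -0.45 on slides a to d. At 2 h it was -4.51, -0.51 and 0.13 on slides a, c and d. On slide a of that time the raw intensity was 53386 in UV leaves and 792406 in control leaves, while the control leaves of slides c and d had 105792 and 122768. The ratio at 2 h thus rests on 1 bright control spot. At 4 h the values were -0.04, -0.01, 0.11 and 0.23. At 8 h they were -1.96, 0.10, -0.10 and 0.33, with slide a again far below the others, and without it the fitted value was 0.0081. At 12 h they were 0.36, -0.67, 0.09 and -0.27. The fit gave -1.76 ± 0.56 at 2 h (limma adjusted p = 0.0816), -0.41 ± 0.48 at 8 h (adjusted p = 0.686) and -0.55 ± 0.25 for the mean of 1, 2, 8 and 12 h (adjusted p = 0.160). Without slide a of 2 h the 2 h value was -0.29 ± 0.42 (adjusted p = 0.794), and without slide d it was -2.51 ± 0.61 and passed (adjusted p = 0.0383). Its residual SD of 1.04 was above that of 98.8% of features. Both AN3 features stand for the same gene, yet their log ratios, with the dye term taken off, correlated at r = 0.235 over 19 slides, a description over slides that share labelling and scanning.

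GIF2, represented by AI901846, was measured on 18 slides and also passed no test. Its log2(UV/control) was 0.78, -0.61 and -0.41 on slides a, c and d at 1 h. It was 1.37, -0.83 and 0.00 on slides a, c and d at 2 h, and -1.59, 0.12, 0.26 and 0.12 at 4 h. At 8 h it was 0.26, 1.19, 0.39 and 0.18, higher in UV on 4 of 4 slides, as were 16.3% of features. The raw intensity, in contrast, was higher in UV on slide b alone. It was 107778, 122349, 119900 and 139923 in UV leaves on slides a to d, against 145667, 107395, 137019 and 158707 in control leaves. Normalised within slides, the 8 h UV levels (16.49 ± 0.14, SD, n = 4) did not overlap the control levels (15.98 ± 0.43, n = 4). This was so for 1.29% of features, in either direction, at that time. After normalization between slides they overlapped (UV 16.12 to 16.73, control 15.33 to 16.47). At 12 h its values were -0.17, -0.06, -0.20 and -0.18, lower in UV on 4 of 4 slides, as were 12.5% of features. The fitted change was 0.51 ± 0.32 at 8 h (limma adjusted p = 0.385) and -0.15 ± 0.32 at 12 h (adjusted p = 0.871), and the F-test between 1, 2, 8 and 12 h gave an adjusted p of 0.800.

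GIF3, represented by AI666227, gave the only calls among the 4 features, lower in UV leaves at 8 h and in the mean of the tested times, and neither call held with loess within blocks of spots (below). Its raw intensity at 8 h was 36960, 49833, 37280 and 73785 in UV leaves on slides a to d, against 146103, 129548, 104771 and 123846 in control leaves. The UV intensities lay below all control intensities, as was so for 7.85% of features at that time. The levels normalised within slides did not overlap either, as for 1.29% of features. This log2 level was 14.77 ± 0.17 in UV leaves and 15.46 ± 0.36 in control leaves (SD, n = 4 each), and log2(UV/control) was -1.20, -0.98, -0.36 and -0.21. After normalization between slides the levels overlapped, with UV up to 14.72 and control from 14.68. The fit gave -0.68 ± 0.13, or 0.622-fold (limma adjusted p = 0.00992). At 4 h, where GIF3 was chosen, the raw intensity was 51012, 35872, 59538 and 37747 in UV leaves, against 123302, 69664, 109010 and 127289 in control leaves. These UV intensities lay below all control intensities, as did those of 1095 of 18254 features (6%) at 4 h, but the normalised levels overlapped. The log ratio there was -0.48, -1.25, -0.39 and -0.30, with a mean of -0.61 ± 0.44 (SD, n = 4), lower in UV on 4 of 4 slides as were 4.69% of features.

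At the other times the GIF3 ratio was small. It was -0.21, -0.07, -0.11 and 0.28 at 1 h, -0.06, -0.19 and -0.34 at 2 h, and -0.35, -0.53, 0.09 and 0.16 at 12 h. None of these times passed the test (fitted -0.03 ± 0.13, -0.27 ± 0.16 and -0.16 ± 0.13, limma adjusted p = 0.982, 0.374 and 0.589). The mean of 1, 2, 8 and 12 h was -0.28 ± 0.070 and passed (adjusted p = 0.0116), with UV lower on 12 of the 15 slides of these times. The share of all features with such a slide count is not given here. The F-test between the tested times gave an adjusted p of 0.232, so the response at 8 h was not shown to differ from that at 1, 2 and 12 h. The dye term of GIF3 was -0.21 ± 0.06. It was fitted on all 19 slides, those of 4 h included, so it is given as a description without a test. At 8 h the GIF3 slides a and b, with UV in Cy5, had the larger falls.

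**Figure D2:**
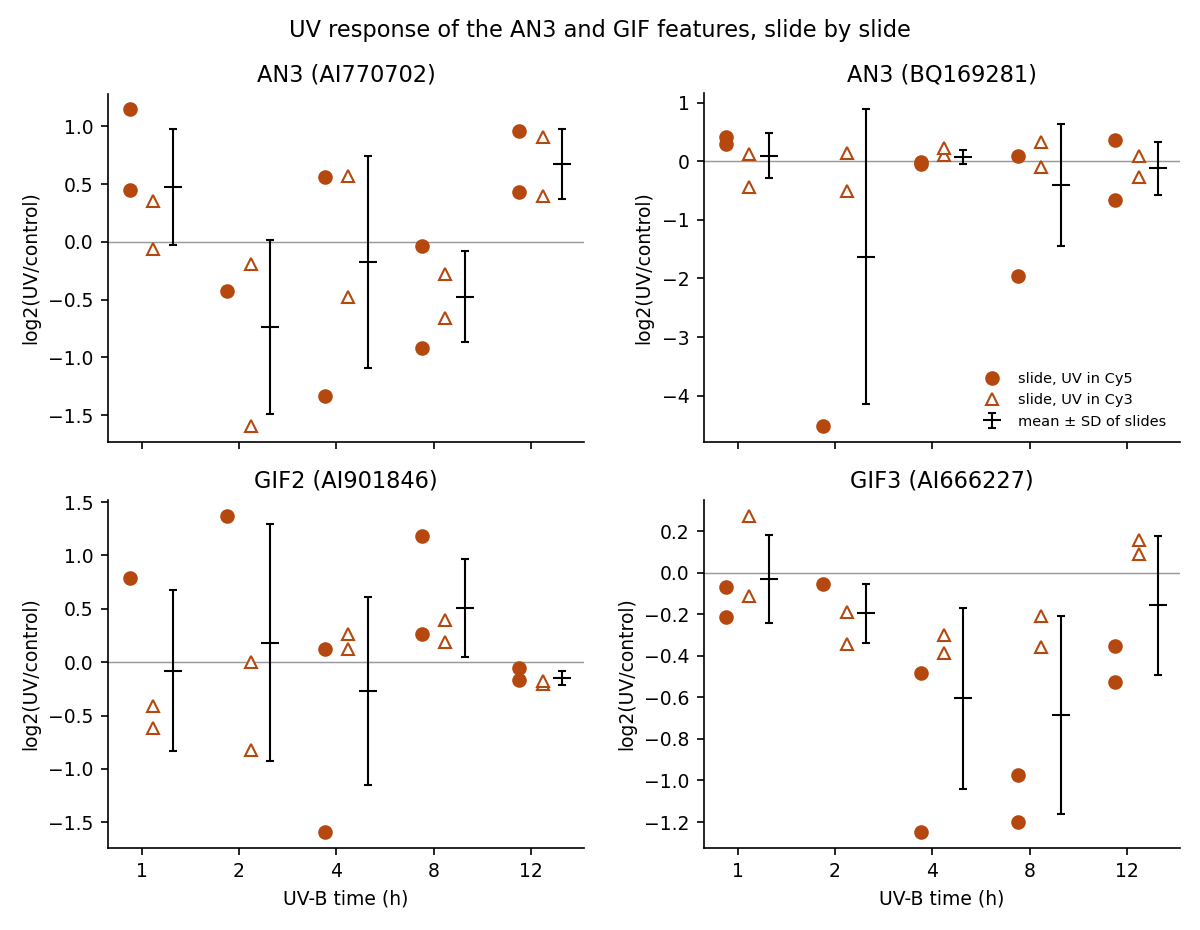
log2(UV/control) of the 4 features by hours of UV-B, 1 symbol per slide (filled circles, UV in Cy5; open triangles, UV in Cy3), with the mean ± SD of the slides as a bar. GIF3 is below 0 on all slides at 4 and 8 h, and AN3 BQ169281 has 1 slide at -4.51 at 2 h. The vertical scales differ between panels.

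Counted over the members, limma called 0 of 4 features at 1 h, 0 of 4 at 2 h, 1 of 4 at 8 h, 0 of 4 at 12 h and 1 of 4 in the mean of these times. Over all tested features the shares called were 0% at 1 h, 4.15% at 2 h, 7.54% at 8 h, 4.33% at 12 h and 15.3% in the mean, and 2.49% were called lower at 8 h. At an unadjusted p under 0.05 the members' counts were 0, 1, 1 and 1 of 4 at 1, 2, 8 and 12 h, against 7.82%, 20.2%, 23.4% and 19% of all features, so these counts were near the background. In the mean the count at that p was 2 of 4 (AN3 BQ169281 and GIF3), against 28.3% of all features. With only 4 features such a count is coarse. The F-test between times called 0 of 4 members and 0.345% of all features. No pair of members passed for a difference in response over the slides of 1, 2, 8 and 12 h in an exact two-sided sign-flip permutation test. Of the 6 pairs compared, the lowest adjusted p was 0.290, and GIF2 minus GIF3 was 0.41 ± 0.87 (SD over 14 slides).

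The fall of GIF3 was shared by other dim features printed near it. The slides are laid out in 48 blocks of spots, and GIF3 lies in block row 12, column 3. Of the 15 features whose log ratios correlated best with GIF3 among 14228, 10 were in its block, which holds 1.93% of the features compared. The 121 other dim features of the block had a median log2(UV/control) of -0.43 at 4 h and -0.47 at 8 h. Dim features of the other blocks had medians of -0.011 at 4 h and -0.0049 at 8 h, and the 214 bright features of the same block had -0.04 and -0.05. At 8 h, 14 of the 121 dim features of the block were at or below GIF3, and at 4 h 21 of 121. On the 19 slides GIF3 and the block's dim median correlated at r = 0.903 (Spearman 0.804), and GIF3 was below the median on 17. The slides of 4 h, where GIF3 was chosen, are part of this r and of the ranking of closest features. Both are thus given as a description without a test.

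When loess was run within each block in place of the whole slide, GIF3 at 8 h was -0.14 ± 0.093 and no longer passed (limma adjusted p = 0.411). The mean of 1, 2, 8 and 12 h was then -0.08 ± 0.048 (adjusted p = 0.268), the 12 h value changed sign to 0.05 ± 0.093, and the 4 h slides averaged -0.22 ± 0.18 (SD). The block of GIF3 was not alone: by the 8 h median of their dim features, 3 blocks were lower than it, and block medians ran from -0.75 to 0.32. The foreign spots moved as well, with a median log ratio of -0.51 at 2 h, -0.21 at 4 h and -0.36 at 8 h and 7 of 7 below 0 at each of these times, against 3 of 7 at 1 h and 4 of 7 at 12 h. Their part in the GIF3 values was not tested.

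**Figure D3:**
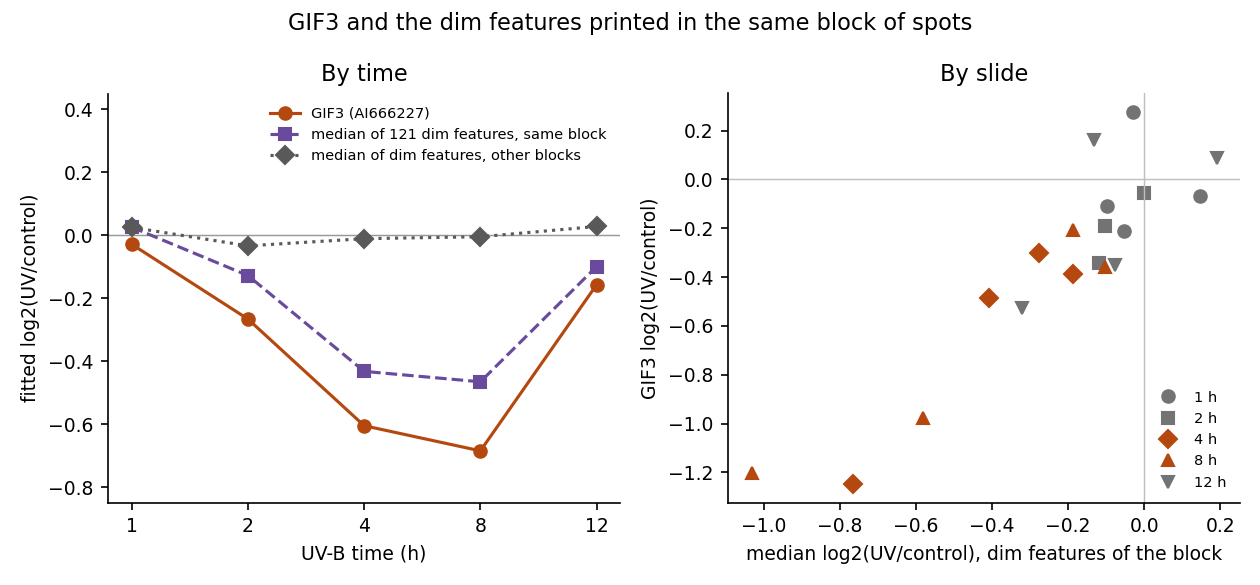
Left, fitted log2(UV/control) by hours of UV-B for GIF3, the median of the 121 other dim features of its block and the median of dim features of other blocks. Right, GIF3 against the block's dim median on each of the 19 slides, with 4 and 8 h in orange. Both GIF3 and its block are lowest at 4 h (-0.61 and -0.43) and 8 h (-0.68 and -0.47), while the other blocks stay near 0.

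Other processing moved the 8 h value of GIF3 as well. It was -0.36 ± 0.073 with uncorrected intensities and -1.50 ± 0.21 with median centring, and both passed. It did not pass without slide a (-0.58 ± 0.15, limma adjusted p = 0.0808) or without slide b (-0.66 ± 0.16, adjusted p = 0.0536). In the authors' processed values, whose scale is unknown, it was -0.04 ± 0.035 (adjusted p = 0.552).

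**Figure D4:**
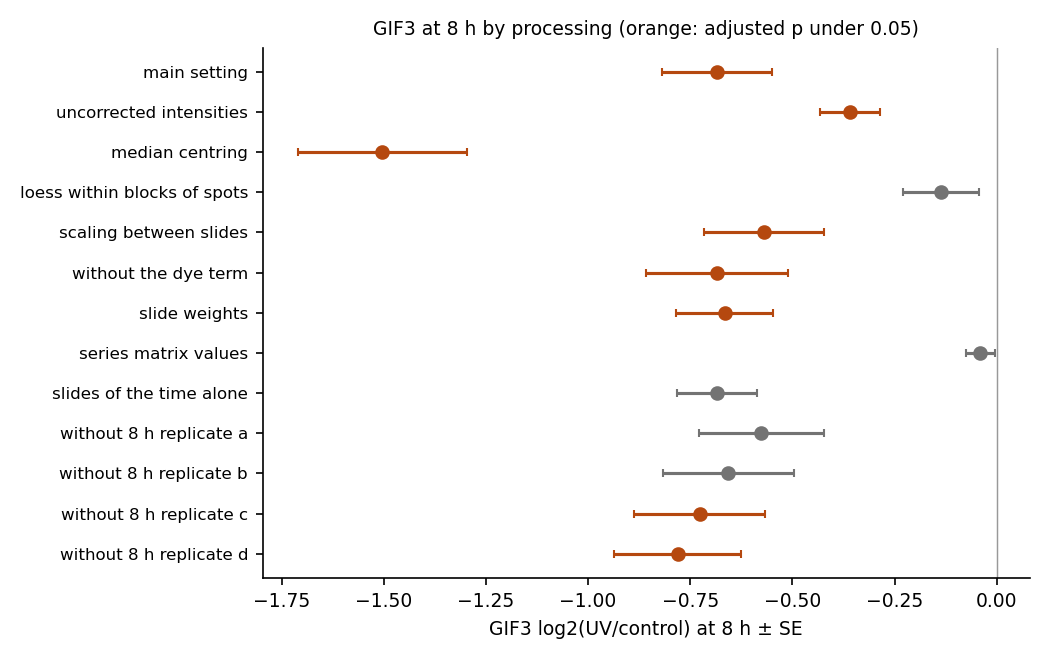
GIF3 log2(UV/control) at 8 h with its SE (horizontal axis) under each processing, orange where the adjusted p was under 0.05. The setting that ignores the pairing by slide, where GIF3 did not pass, is not drawn. Loess within blocks and the authors' processed values lie closest to 0, at -0.14 and -0.04.

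The features closest to each member in their slide-to-slide pattern were taken from those with an informative gene symbol, by Pearson r with the dye term taken off. For AN3 AI770702 they were aoc1 AI770695 (r = 0.998), the heat-shock protein gene hsp70-4 AW355857 (0.980) and the invertase gene ivr2 BE123248 (0.928), over 19 slides. The aoc1 feature gave 0.37, 0.97, -0.02 and 0.35 on the slides of 1 h and 0.83, 0.31, 0.88 and 0.43 on those of 12 h, nearly the values of AN3. Other features of the same symbols followed AN3 less closely. The 6 other aoc1 features had r between -0.667 and 0.165 with AN3, the 2 other hsp70-4 features had 0.135 and 0.239, and the other ivr2 feature, AW433462, had 0.655. AN3 AI770702 and aoc1 AI770695 are printed in the same block (row 10, column 3) at row 4, column 18 and row 5, column 2 of it, while the hsp70-4 and ivr2 features lie in other blocks. In all, 37 of 14228 features had r over 0.9 with AN3 AI770702. Whether these spots carry related sequence was not tested.

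**Figure D5:**
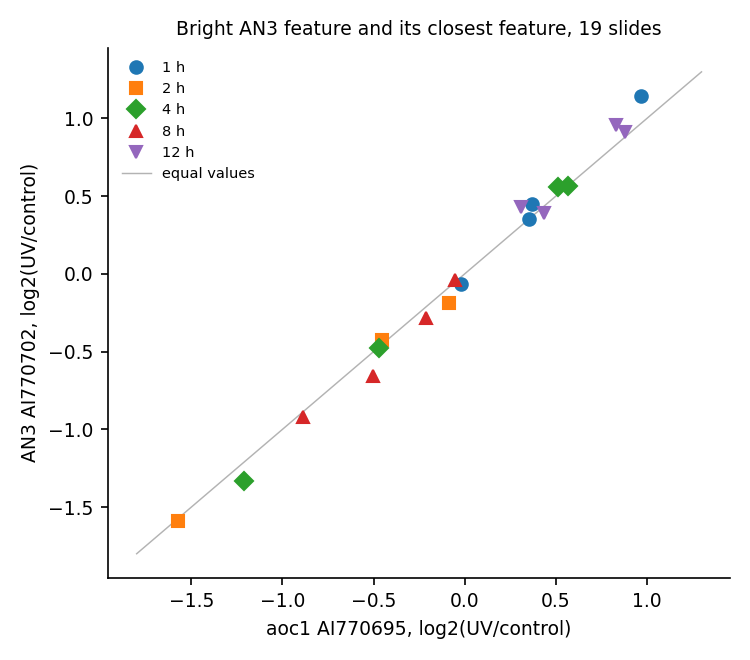
log2(UV/control) of AN3 AI770702 against that of aoc1 AI770695 on 19 slides, marked by time. The points lie along the line of equal values from -1.59 to 1.15 on the AN3 axis (r = 0.998).

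AN3 BQ169281 was closest to pk8-a (0.871), the histone deacetylase gene HDA108 (0.801) and MZm3-3 (0.730). GIF2 was closest to zfp30 (0.710), psk1 (0.686) and GAPC, a cytosolic glyceraldehyde-3-phosphate dehydrogenase (0.670), over 18 slides. GIF3 was closest to aic1 (0.775), dehydrin3 (0.687) and arpp2a (0.663). None of these was a GRF or another GIF, and these r values describe slides that share labelling, scanning and print position.

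Levels over time, apart from UV, were compared in the separate channels after Aquantile normalization between slides. In control leaves AN3 AI770702 averaged 20.88, 21.31, 20.60, 21.19 and 20.63 at 1, 2, 4, 8 and 12 h, with SDs from 0.14 to 0.72, and neighbouring times overlapped. In UV leaves it averaged 21.35, 20.58, 20.43, 20.71 and 21.30. The F-test over 1, 2, 8 and 12 h gave an adjusted p of 0.584 in UV leaves and 0.745 in control leaves (limma). For AN3 BQ169281 it gave 0.844 in UV leaves and 0.347 in control leaves, and for GIF2 0.617 in UV leaves and 0.767 in control leaves, in a fit on 18 slides that called 2.23% and 1.89% of features.

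GIF3 had its highest mean level at 1 h in UV and in control leaves. In UV leaves it averaged 16.98 ± 2.70, 15.82 ± 1.66, 14.31 ± 0.58, 14.61 ± 0.11 and 13.94 ± 0.76 at 1, 2, 4, 8 and 12 h (SD). In control leaves it averaged 17.01 ± 2.77, 16.01 ± 1.54, 14.92 ± 0.30, 15.30 ± 0.53 and 14.10 ± 1.04. At 12 h against 1 h the level was lower by log2 -3.04 ± 0.79 in UV leaves (limma adjusted p = 0.0230) and -2.91 ± 0.79 in control leaves (adjusted p = 0.0323). The share of all features passing this comparison is not given here, nor are the levels of the other dim features of its block. Each time had slides of its own, so time and slide cannot be told apart. At 8 h against 1 h the differences of -2.37 in UV leaves and -1.71 in control leaves did not pass (adjusted p = 0.0998 and 0.357). The F-test over 1, 2, 8 and 12 h did not pass in UV leaves (adjusted p = 0.0703) or control leaves (adjusted p = 0.112), where 3.75% and 3.06% of features did. The 1 h mean rests on slides b and c, with raw intensities of 264786 and 490832 in UV leaves and 253657 and 610737 in control leaves, while slides a and d had 103099 and 94606 in UV leaves and 71000 and 69071 in control leaves. The 12 h difference did not pass without slide b of 1 h (-2.34 ± 0.80 in UV leaves and -2.27 ± 0.80 in control leaves, adjusted p = 0.116 and 0.147) or slide c of 1 h (-2.24 ± 0.74 and -2.01 ± 0.74, adjusted p = 0.112 and 0.174), nor without slide b, c or d of 12 h, where the adjusted p lay between 0.0522 and 0.114. Without slide a or slide d of 1 h, the control F-test passed (adjusted p = 0.0257 and 0.0345), and without slide b or c it did not (adjusted p = 0.270 and 0.258).

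The GRF transcription factors, the DNA-binding partners of the GIF proteins, had 12 features of 8 genes (GRF2, GRF6, GRF8, GRF9, GRF10, GRF12, GRF13 and GRF14), of which 7 lay above the brightest foreign spot. None of the 12 passed the limma test at 1, 2, 8 or 12 h or in their mean, with 0, 3, 4, 0 and 4 at an unadjusted p under 0.05. Over all features the shares at that p were 7.82%, 20.2%, 23.4% and 19% at these times and 28.3% in the mean, so the counts of 3, 4 and 4 of 12 were near the background. Their median log2(UV/control) was -0.15 at 8 h and -0.10 in the mean, against -0.00035 and -0.015 over all features. The smallest p of the mean belonged to GRF6 AW438392, at -0.14 ± 0.053 (adjusted p = 0.0862), a feature with a mean log2 intensity of 19.04. With loess within blocks, 2 features of the same gene passed in opposite directions in the mean. They were GRF13 AI738258 at -0.15 ± 0.046 (limma adjusted p = 0.0323) and GRF13 BQ620955 at 0.42 ± 0.14 (adjusted p = 0.0492). The main setting called 15.3% of all features in the mean, and the share with loess within blocks is not given here.

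Cell division genes, which the GRF-GIF module promotes in growing leaves, had 14 features of 9 genes, and 1 rose and 0 fell in the mean of the tested times, where 9.54% of all features rose and 5.76% fell. This was pcna1 AI979497, the sliding clamp of DNA replication, at 0.19 ± 0.056 (limma adjusted p = 0.0298), higher in UV on 13 of the 15 slides of these times. It kept its call with loess within blocks (0.19 ± 0.053, adjusted p = 0.0221). A count of 1 of 14 is near the background, and the share of all features with such a slide count is not given here. At 1, 2, 8 and 12 h, 0 of the 14 passed, with 1, 2, 0 and 3 at an unadjusted p under 0.05, against 7.82%, 20.2%, 23.4% and 19% of all features. With loess within blocks the replication helicase gene MCM6 AI881518 also passed, in the other direction (mean -0.19 ± 0.039, adjusted p = 0.00325). Under that setting both features passed at 12 h as well, pcna1 at 0.43 ± 0.10 (adjusted p = 0.0235) and MCM6 at -0.30 ± 0.075 (adjusted p = 0.0323). Shares of all features called with loess within blocks are not given here. The other features of these genes did not pass in the mean under that setting. The dim MCM6 AI619115 had the opposite sign to AI881518, at 0.32 ± 0.21 (limma adjusted p = 0.311), and pcna1 AI649433 was at 0.31 ± 0.13 (adjusted p = 0.113).

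Leaf development factors had 11 features of 7 genes, and in the mean 1 rose and 1 fell, or 2 of 11, near the 15.3% of all features called there. Both were features of rld1, a leaf polarity factor: AI770971 at 0.18 ± 0.044 (limma adjusted p = 0.0117) and the dim AI714842 at -0.37 ± 0.12 (adjusted p = 0.0440). With loess within blocks they were 0.07 ± 0.039 and -0.07 ± 0.075, and neither passed.

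Expansins, wall-loosening proteins of expanding cells, had 17 features of 5 genes. At 8 h 3 fell and 0 rose, and in the mean 5 fell and 1 rose, against 2.49% of all features lower at 8 h and 5.76% lower and 9.54% higher in the mean. All 3 at 8 h were features of lop1, which RefSeq lists as a beta-expansin gene, so they are not independent. The larger falls were BQ486471 at -1.42 ± 0.38 (limma adjusted p = 0.0342) and BQ485966 at -0.70 ± 0.14 (adjusted p = 0.0102). Other lop1 features did not pass at 8 h, among them BQ578115 at -0.09 ± 0.24 (adjusted p = 0.879). The largest changes in the mean were expB8 BQ279962 at 0.60 ± 0.15 (adjusted p = 0.0130) and the dim lop1 BE128826 at -0.37 ± 0.074 (adjusted p = 0.00343). The lop1 features AW324637 and BQ485966 were also called lower in the mean, so these falls are not independent either. Another expB8 feature, AW330597, passed in the opposite direction (-0.23 ± 0.059, adjusted p = 0.0136). With loess within blocks lop1 BQ486471 and BQ485966 stayed at -1.34 ± 0.34 and -0.74 ± 0.14 at 8 h (adjusted p = 0.0251 and 0.00707).

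The tissue label was checked on leaf markers. The 8 mesophyll features (pdk1, lhcb5, Lhcb5-2 and Cab-m7) and the bundle sheath rbcS feature were above the brightest foreign spot, at mean log2 intensities of 17.67 to 21.30 and 20.33. In the mean of the tested times 5 of 8 mesophyll features fell, as did the rbcS feature (AW352495, -0.46 ± 0.12, limma adjusted p = 0.0144), against 5.76% of all features. With loess within blocks rbcS did not pass (-0.35 ± 0.13, adjusted p = 0.0763). Of 6 features of seed genes, 3 were above the brightest foreign spot as well, ole1 AI833345 at 20.83 and glb1 AW267422 at 18.73 among them. Brightness thus did not separate leaf genes from seed genes, so the check cannot settle the tissue label. The dim glb1 AW066754 was called higher at 8 h (0.75 ± 0.18, limma adjusted p = 0.0203), where 7.54% of all features were called in either direction. The dim glb1 AW261338 was called lower in the mean (-0.21 ± 0.057, adjusted p = 0.0198).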

How the data were processed

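Per the labels, scans of 2-colour cDNA slides were gridded or analysed with TIGR Spotfinder, and the deposited per-sample files give 1 linear intensity per spot and channel. A table of the authors' processed score covers 19818 features, with column medians of 12.24 to 12.35, whose scale and centring are unknown, and was used only as an alternative. Its log ratios correlated with those of the intensities at r of 0.690 to 0.845 per slide. Channels held 18795 to 20158 spots with median intensities of 138059 to 626914. The number of slides limits the precision. The scanner and any background subtraction are not given in the sources used here.

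Intensities were corrected by normexp (offset 50) and log2(UV/control) normalized by loess (span 0.3) in limma 3.58.1 (R 4.3.3). Of 20231 positions, 120 control and specially named spots were left out, and features measured on at least 2 slides of every time were tested (20014 of 20076). The fit had 5 time means and a dye term over 19 slides (13 residual and 2.75 prior degrees of freedom), with eBayes and Benjamini-Hochberg adjustment over all features at 0.05. The separate-channel fit (intraspot correlation 0.786) held 14229 features, or 14583 on the 18 slides that measured GIF2. UV and control share a slide, which carries the pairing. Slides of opposite dye orientation at the same time correlated at a median r of -0.24, -0.29, -0.27, 0.20 and 0.13 at 1, 2, 4, 8 and 12 h over all features. For slides of the same orientation the median r was 0.33, 0.41, 0.33, 0.43 and 0.43. Ratios at 1, 2 and 4 h were thus alike within a dye orientation but not between orientations. Replicate letters follow the titles, which differed from the source name in a few samples. Fits were tested on simulated data with independent noise for each feature and no pattern by block. That test does not bear on calls of features that follow their block, such as GIF3.

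Of 1334 named probes 1331 had 1 symbol and 3 several, and 1283 were in the RefSeq table (Zm-B73-REFERENCE-NAM-5.0), used for names only. RefSeq gave no descriptions, so lists were matched by symbol and synonym, and those for chromatin remodelers and histones matched 0 features. From each list the 2 passing features with the largest change per comparison are named, or the one with the smallest p of the mean, and for likeness the 3 features of highest r. MCM6, GRF13 and further features of a named gene, with BQ528828, Lhcb5-2 AI834658 and rbcS, were named after their values were seen. The members and lists were chosen with earlier results of these data known.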

Additional observations from a re-analysis of the deposited data

Results flagged for a closer look

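In 3 of 45 groups of 4 slides, 1 slide stood farther from the rest than Dixon's 95% limit allows, and chance alone marks about 1 in 20 groups. GIF2 AI901846 had a log2(UV/control) of -1.59 on slide a of 4 h, while the other slides lay between 0.12 and 0.26. Its UV level on that slide was 15.24 on the log2 scale, against 17.54 to 17.82 on the others. AN3 BQ169281 had a UV level of 12.75 on the same slide, against 15.71 to 16.18 on the others, and its control level there was 12.79.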

How the results depend on the processing

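Of 532 values of the members under other settings, 487 were counted as unchanged. For tested changes this meant the same direction and side of the threshold, and for F-tests the same side. For 4 h means and signal levels, which had no test, it meant a shift smaller than the SD of the main setting, whatever the sign. GIF3 at 8 h did not pass with loess within blocks (-0.14), the authors' processed values (-0.040), slides of that time alone (-0.68) or no replicate block, ignoring the pairing by slide (-0.68, adjusted p = 1.000). Leaving out slides gave -0.78 to -0.58. Its mean over 1, 2, 8 and 12 h did not pass with loess within blocks (-0.082), scaling between slides (-0.24), no dye term (-0.27), the authors' values (-0.016) or no replicate block (-0.28). Its mean at 4 h was -1.23 with median centring and -0.0090 in the authors' values, and that of AN3 BQ169281 was -0.39 with median centring.

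Calls appeared with median centring for AN3 BQ169281 at 2 h (-2.05) and for GIF3 between times (adjusted p = 0.0362). With single slides left out, BQ169281 at 2 h ran from -2.51 to -0.29, and the adjusted p of GIF3 in control leaves over time from 0.0257 to 0.270.

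Among tested changes, signs turned only for values that did not pass. With median centring GIF2 was 0.49 at 1 h and -0.070 at 2 h and GIF3 0.095 at 1 h. GIF3 at 12 h was 0.055 with loess within blocks and 0.012 in the authors' values, where BQ169281 at 1 h was -0.068 and GIF2 0.18 at 1 h and -0.027 at 2 h. The mean of AN3 AI770702 was 0.035 with scaling and 0.019 with slide weights, which gave BQ169281 -0.061 at 1 h, and GIF2 at 1 h was 0.14 from that time's slides alone. Leaving out slides gave, at 1 h, -0.16 to 0.43 for BQ169281, -0.40 to 0.19 for GIF2 and -0.090 to 0.076 for GIF3. It gave -0.35 to 0.69 for GIF2 at 2 h, -0.73 to 0.0081 for BQ169281 at 8 h and -0.44 to 0.074 at 12 h. Means ran from -0.084 to 0.091 for AI770702 and -0.013 to 0.25 for GIF2. At 4 h, without a test, AI770702 ran from -0.42 to 0.22 and GIF2 from -0.45 to 0.17, against -0.17 and -0.27 on all slides.

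Over all features, calls ranged from 0 to 3 at 1 h, 0 to 1679 at 2 h, 0 to 3183 at 8 h, 29 to 2024 at 12 h, 249 to 3759 in the mean, 0 to 560 between times and 214 to 776 in control leaves over time. With loess within blocks, chosen after seeing the data for the lists and for 4 h, the calls gained at single times were expB8 BQ279962 higher (1.23) and Lhcb5-2 AI834658 lower (-0.67) at 2 h, lop1 BQ528828 lower (-0.63) at 8 h, and pcna1 AI979497 higher (0.43) and MCM6 AI881518 lower (-0.30) at 12 h. The shares of all features called under that setting alone are not given here.

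The 3 dim features lie within or below the signal of foreign spots, which limits what their ratios show. Testing only bright features left AN3 AI770702 alone among the members.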
